A study of Arabidopsis thaliana and Oryza sativa and Cucumis sativus with 30 samples.

Results

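The epidermis of the Arabidopsis root is patterned into hair and non-hair cells by a small set of transcription regulators, and 10 of them are described here: WER, MYB23, GL3, EGL3, TTG1, CPC, TRY, ETC1, GL2 and TTG2. They were chosen by gene identifier for their known roles, and the rule that picks them uses no measured value. Earlier results of these data were known when they were chosen. All 10 were listed among the 17628 genes of the WER::GFP epidermis table and among the 33550 genes of the COBL9::GFP hair cell table. Of the 14919 genes listed for sieved root hairs, 2 were members, TTG1 and CPC.

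In non-hair cells the R2R3 MYB protein WER (AT5G14750) joins the bHLH proteins GL3 (AT5G41315) and EGL3 (AT1G63650) and the WD40-repeat protein TTG1 (AT5G24520) in a complex that switches on GL2 (AT1G79840), a homeodomain-leucine zipper factor that blocks hair formation. The same complex switches on the small R3 MYB genes CPC (AT2G46410), TRY (AT5G53200) and ETC1 (AT1G01380), whose products compete with WER for the bHLH proteins, and CPC moves into neighbouring cells and favours hair fate there. MYB23 (AT5G40330) is a close relative and target of WER, and TTG2 (AT2G37260) is a WRKY factor acting downstream of the complex. Hair fate then runs through the bHLH factor RHD6, which acts below these genes.

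The series holds 30 RNA sequencing libraries, of which 12, in 4 groups of 3, concern Arabidopsis and are used here. All came from variety Columbia, 4 to 5 days after plating. One pair of groups holds protoplasts sorted for GFP driven by the WER promoter, from wild type and from the mutant rhd6, and both groups carry the reporter. A further group, titled as wild type, holds protoplasts sorted for GFP driven by the promoter of COBL9, a hair cell gene. The last holds root hairs collected through a sieve after stirring roots in liquid nitrogen, from plants for which the labels name no transgene. Root tips were pooled before sorting, so a library is a pool of plants, and the design text calls the 3 libraries of a group biological replicates. The deposited columns carry no replicate numbers, so the libraries are lettered in column order, A, B and C for wild-type WER::GFP, D, E and F for rhd6 WER::GFP and G, H and I for COBL9::GFP, and values are given in that order. Because the WER promoter chose the epidermal cells, a high WER level there is no finding.

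The members are related in sequence, which bears on how far reads can be told apart. In RefSeq models of TAIR10.1, the encoded WER and MYB23 proteins (203 and 219 residues) were identical over 58.9% of aligned columns, and GL3 and EGL3 (645 and 596 residues) over 73.5%. CPC, TRY and ETC1 were short, at 94, 106 and 83 residues, and shared 45.4% to 54.3% with one another. The signature by which R3 MYB repeats bind bHLH proteins, a spaced series of leucines and basic residues after aspartate or glutamate, was found 1 time in each of WER, MYB23, CPC, TRY and ETC1 and in none of the other 5. At the level of transcripts, the longest exact run was 38 bases, between GL3 and EGL3, and 10 to 21 bases among the other related pairs. No member shared a word of 50 bases with another member. GL2 overlapped AT1G09927 on the same strand over 155 of its 3204 exon bases, and GL3 and ETC1 overlapped opposite-strand genes over 36 and 2 exon bases. AT1G09927 and the gene overlapping GL3 were listed in neither the epidermis nor the hair cell table. The gene overlapping ETC1 was listed only for hair cells, at a mean of 0.0565 FPKM. Whether the unlisted genes entered the counting is not known, and the sources used here do not say whether it used strand. How reads of those stretches were assigned is therefore not known.

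The 6 WER::GFP libraries held 10562137 to 23110648 reads in the listed genes. The depth of the libraries given as FPKM (fragments scaled by transcript length and depth) is unknown. Markers of the sorted cells were read: the 6 hair genes COBL9, EXPA7, EXPA18, PRP3, LRX1 and RHS19 summed to 1693 to 3476 normalized CPM (counts per unit depth, scaled by the authors for each library) in wild-type epidermis and 1354 to 4229 FPKM in COBL9::GFP cells, none at 0. The 4 root cap genes SMB, BRN1, BRN2 and FEZ were read too, at 163 to 195 normalized CPM in wild type, 110 to 441 in rhd6 and 31.6 to 478 FPKM in COBL9::GFP cells, where library G was the lowest, and none was at 0. Library G stood apart in other ways described with the COBL9::GFP results, and differences from epidermis are given with and without it. In rhd6, library D had the highest sum of the 6 cell division genes (264 normalized CPM, against 153 and 161 in the other rhd6 libraries and 120 to 135 in wild type), and library E the highest root cap sum. The column names carry library numbers, all lower for wild type than for rhd6, what they number is not given, and any batch they mark cannot be told apart from genotype. In sieved hairs replicate libraries correlated at only r = 0.372 to 0.651 across listed genes, against 0.943 to 0.985 in COBL9::GFP cells.

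In wild-type epidermis all 10 members were read, in an order that ran from WER to the small R3 MYB genes. Per kilobase of the longest reference transcript, WER stood first at 55.8 ± 9.78 normalized CPM per kb (SD, n = 3). CPC followed at 32.8 ± 6.69, MYB23 at 26.5 ± 3.38 and GL2 at 22.9 ± 6.25, and the ranges of these neighbours overlapped. TTG1, the shared WD40 component, stood at 17.6 ± 1.02, below GL2 and above TTG2 at 9.17 ± 0.788, without overlap on either side. The bHLH genes were close in level, EGL3 at 8.29 ± 0.229 and GL3 at 6.94 ± 0.358, and EGL3 overlapped TTG2 but not GL3. The other R3 MYB genes were low, ETC1 at 4.63 ± 1.01 and TRY at 2.58 ± 0.599, the latter from 18, 58 and 59 reads. The order of GL2 and CPC depends on the transcript model, as the log2 ratio of GL2 to CPC went from -0.51 with the longest to 0.27 with the shortest transcripts.

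RHD6 acts below the patterning genes, and the series includes rhd6 epidermis to find genes under its control. RHD6 itself was read at 74.3, 75.5 and 85.4 normalized CPM in wild type and at 1.254, 0.940 and 1.995 in rhd6, low in every library labelled rhd6. None of the 10 members passed an adjusted p of 0.05 in limma, where 4.12% of the 17575 tested genes did. Only EGL3 had an unadjusted p below 0.05, which 17.1% of tested genes met, and edgeR called 0 members (3.77% of genes) and DESeq2 called EGL3 (7.67% of genes). The groups did not overlap for 4 of the 10 members, EGL3 and TTG2 higher in rhd6 and MYB23 and CPC lower, against 27.5% of tested genes (13.2% higher and 14.3% lower). For 7 of the 10 the log2 difference was under 0.5 in size, as for 76.7% of tested genes. The median log2 difference of the members was -0.06, and that of all tested genes 0.04.

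EGL3, a bHLH partner of WER, was the member with the widest difference. It was read at 20.8, 20.9 and 21.8 normalized CPM in the wild-type libraries and at 72.5, 27.3 and 39.3 in rhd6 libraries D, E and F. Every rhd6 library lay above every wild-type library, and the mutant libraries spread far more widely. The log2 difference was 0.98 ± 0.33 SE on the log2(value + 1) scale (95% interval 0.21 to 1.75, limma adjusted p = 0.184, n = 3 each). DESeq2 gave an adjusted p = 0.0445, and limma without library E gave an adjusted p = 0.0371 (4.52% of genes called), and the 13 alternatives ran from 0.0371 to 0.469. The log2 difference of EGL3 was 0.61 without library D, which held its highest value, and 1.30 without library E, the ends of its range over those alternatives. The authors' deposited table lists an FDR of 0.0332 for EGL3, with 6.67% of its genes below 0.05. The rhd6 library with the highest EGL3, D, also had the highest cell division sum, and the one with the lowest, E, the highest root cap sum, and their part in the difference was not tested.

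GL3, the other bHLH gene, overlapped between the groups. It was read at 17.7, 18.9 and 19.6 normalized CPM in wild type and at 28.5, 12.2 and 17.6 in rhd6 libraries D, E and F, so that the mutant libraries lay on both sides of wild type. Its log2 difference was -0.03 (95% interval -0.71 to 0.65, limma adjusted p = 0.968), and its sign changed without the authors' scaling factors (0.02), in edgeR (0.05) and in DESeq2 (0.03). A ratio within a library does not depend on how libraries were scaled, apart from the pseudocount. The log2 ratio of GL3 to EGL3, on log2(value + 1), was -0.17 ± 0.0447 in wild type and -1.18 ± 0.120 in rhd6 (SD, n = 3 each), a difference of -1.01 with no overlap, and of -1.05 to -0.94 when any 1 library was left out. The exact permutation test gave p = 0.1, the smallest that 3 against 3 libraries allow (two-sided, 0.175 adjusted over 7 ratios).

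Neither R2R3 MYB gene passed the test. WER was read at 81.0, 59.4 and 61.8 normalized CPM in wild type and at 130, 62.8 and 95.8 in rhd6. The groups overlapped, with a log2 difference of 0.46 (95% interval -0.20 to 1.12, limma adjusted p = 0.449). MYB23 was read at 23.9, 29.7 and 23.98 in wild type and 22.5, 16.3 and 19.6 in rhd6, each mutant library below each wild-type one, with a log2 difference of -0.40 (-0.85 to 0.06, limma adjusted p = 0.350). The log2 ratio of WER to MYB23 was 1.34 ± 0.370 in wild type and 2.20 ± 0.297 in rhd6, without overlap (exact permutation p = 0.1, 0.175 adjusted over 7 ratios). TTG1 was read at 34.5, 31.4 and 31.1 in wild type and 25.9, 30.4 and 31.4 in rhd6, a log2 difference of -0.14 whose 95% interval, -0.53 to 0.25, was the narrowest of the 10 members (limma adjusted p = 0.696).

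Among the mobile inhibitors, CPC was read at 22.2, 22.0 and 30.9 normalized CPM in wild type and at 17.5, 12.9 and 21.3 in rhd6. The groups did not overlap, though the highest mutant and lowest wild-type library were close, and the log2 difference was -0.52 (95% interval -1.08 to 0.04, limma adjusted p = 0.321). ETC1 was read at 4.499, 4.399 and 2.95 in wild type and 2.06, 1.13 and 3.86 in rhd6, with overlap and a log2 difference of -0.63 (-1.38 to 0.12). TRY gave 1.72, 2.50 and 2.76 against 3.36, 1.76 and 2.08, a log2 difference of 0.02 (-0.56 to 0.59). Neither low gene passed (limma adjusted p = 0.367 and 0.982), and each rested on 18 to 102 reads a library. The log2 ratio of WER to CPC was 1.40 ± 0.422 in wild type and 2.38 ± 0.385 in rhd6, a difference of 0.98 without overlap (exact permutation p = 0.1, 0.175 adjusted). CPC and GL2 were both highest, among wild-type libraries, in C, which also had the highest hair marker sum (3476 normalized CPM, against 1774 and 1693), and its part in these differences was not tested.

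GL2, the gene that marks non-hair fate, was read at 55.1, 56.8 and 87.3 normalized CPM in wild type and at 77.7, 57.0 and 50.9 in rhd6. The groups overlapped throughout, with a log2 difference of -0.09 (95% interval -0.68 to 0.50, limma adjusted p = 0.882). TTG2 was read at 15.4, 18.3 and 17.3 in wild type and 30.3, 18.9 and 20.2 in rhd6, above wild type in every library though only narrowly in E, with a log2 difference of 0.40 (-0.12 to 0.91, limma adjusted p = 0.406). The log2 ratio of GL2 to TTG2 differed by -0.49 in rhd6 without overlap (exact permutation p = 0.1, 0.175 adjusted). None of the 7 ratios compared passed 0.05, which 3 against 3 libraries cannot reach, and ratios that share a member are not independent. For GL2 to CPC, CPC to TRY and CPC to ETC1 the libraries overlapped (differences 0.43, -0.54 and 0.11, exact permutation p = 0.4, 0.2 and 0.8).

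**Figure D1:**
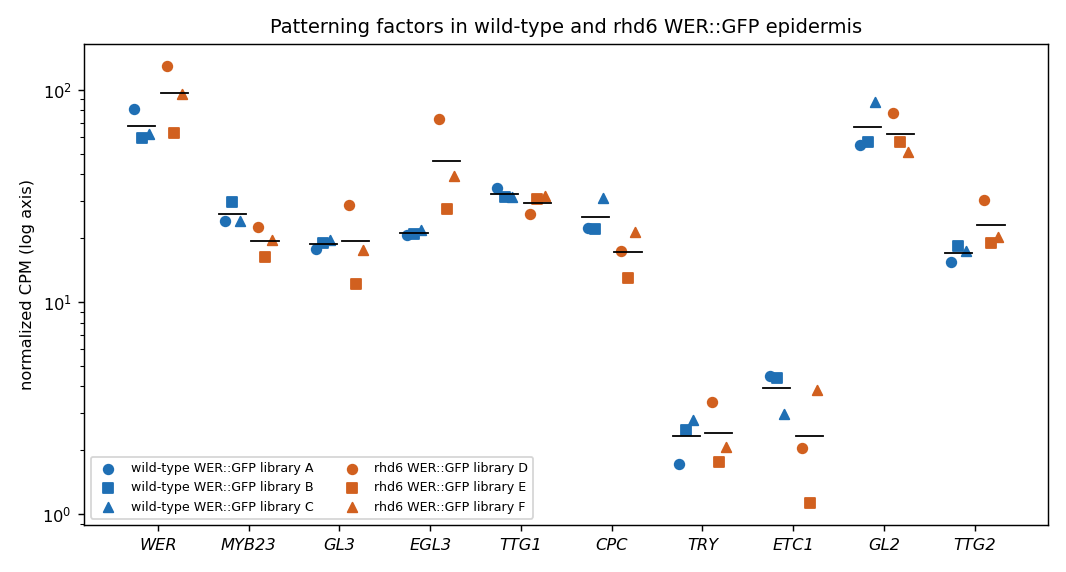
Level of each patterning factor in normalized CPM (log axis) in 3 wild-type (blue) and 3 rhd6 (orange) WER::GFP libraries, 1 symbol per library, with a black bar at each group mean. EGL3 lies at 20.8 to 21.8 in wild type and 27.3 to 72.5 in rhd6, while GL3, WER, GL2 and TRY overlap.

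Genes that act above or beside the members were counted in the same way. Of 21 other pathway genes listed, 12 were tested and none passed in limma, where 4.12% of tested genes did. An unadjusted p below 0.05 was met by 3 of the 12, against 17.1% of tested genes. DESeq2 called 1 of them, SCM, against 7.67% of genes. SCM, the receptor-like kinase that reads cell position, was read at 10.8, 10.3 and 10.4 in wild type and 23.6, 16.8 and 15.7 in rhd6 (log2 difference 0.75, limma adjusted p = 0.104). GEM, named for its effect on GL2 expression, was read at 60.6, 57.9 and 73.0 against 39.6, 42.9 and 44.6 (-0.57, limma adjusted p = 0.137). ANL2, a homeodomain relative of GL2, was at 148, 139 and 140 against 268, 205 and 167 (0.56, limma adjusted p = 0.253). MYC1, a further bHLH partner of the complex, had -0.55 (limma adjusted p = 0.406). The remaining 8 were QKY, JKD, ZFP5, HDA6, WRKY75, BIN2, PDF2 and HDG11, and 9 genes, among them the R3 MYB genes ETC2, ETC3, TCL1 and TCL2 and the shoot relative GL1, were not in the table. Those 4 R3 MYB genes were listed at 0 to 0.0924 FPKM in every COBL9::GFP library.

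Of 8 hair factors that act below the patterning genes, RHD6, RSL2, RSL4 and LRL3 were lower and RSL1, LRL1, LRL2 and PLDZ1, which encodes a phospholipase D, did not pass (log2 difference -0.33 to -0.62). RHD6 is the gene for which the mutant is named, so its lower level there is no finding. The background share of genes lower in rhd6 was 3.26%. Leaving out wild-type library A, wild-type library C or rhd6 library F left 2 of the 8. All 6 hair cell marker genes were lower, with a median log2 difference of -4.16, and their sum was 39.5, 361 and 98.2 normalized CPM in rhd6 libraries D, E and F.

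The next comparison sets sorted hair cells beside sorted epidermis. The tables were normalized separately and in different units, so no test was made. All 17628 genes of the epidermis table reached 1 CPM, before the authors' scaling, in at least 3 of the 6 WER::GFP libraries. The hair cell table lists genes down to a mean of 0 FPKM. Genes low in epidermis could thus be left out, while genes low in hair cells stayed in. Such a filter favours lower values in hair cells, mostly for genes near the limit such as TRY. Its part in the calls below was not tested. Epidermal values were divided by transcript length, and each log2 difference is given relative to the median of 17555 genes in both tables, which was -0.09. A member was called when it lay at least 2-fold from that median and, once centred, no COBL9::GFP library overlapped a wild-type one. By this rule WER, EGL3 and TRY were lower in COBL9::GFP cells and no member was higher, against 14.8% of genes lower and 5.29% higher. Without library G, a choice made after the data were seen, MYB23, ETC1, GL2 and TTG2 were lower as well, 7 of 10 in all, against 13.2% of genes lower and 8.72% higher. In the same step the root cap genes BRN1 (0.60 to 1.70) and BRN2 (0.74 to 1.89) came to be called higher, and the median of the 4 root cap genes went from 0.07 to 1.14. FEZ, of the same list, was lower with and without library G (-2.11 and -2.05). All 6 cell division genes were lower over the 3 libraries (-1.93 to -1.59), a size near those of WER and EGL3. The part of root cap or dividing cells in the members' values was not tested. In bulk libraries a smaller share of cells that express a gene cannot be told apart from less RNA per cell.

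Of the non-hair complex, WER and EGL3 were lower in hair cells. WER was at 8.26, 17.1 and 14.9 FPKM in libraries G, H and I, and at 67.0, 49.2 and 51.2 normalized CPM per kb in wild-type epidermis. Every hair cell library lay far below every epidermal one, and the centred log2 difference was -1.94 ± 0.565 (SD), lower than for all but 4.56% of genes, and -1.65 without library G. Since the WER promoter chose the epidermal cells, this difference is given as a description of the sorts. EGL3 was at 2.99, 1.17 and 3.54 FPKM against 8.14, 8.18 and 8.56 per kb, a log2 difference of -1.36 ± 0.572 (-1.49 without library G). GL3 was at 6.29, 2.42 and 3.70 against 6.55, 6.99 and 7.26, a smaller log2 difference of -0.61 ± 0.553 (-0.90 without G) that did not meet the rule with or without library G. MYB23 was at 27.3, 7.76 and 9.79 FPKM against 24.5, 30.4 and 24.5, so that library G lay within the epidermal range and the other hair cell libraries well below it, with a log2 difference of -0.89 over all 3 and -1.41 without G. TTG1 was at 18.7, 20.3 and 19.4 against 18.8, 17.1 and 17.0, a log2 difference of 0.22 ± 0.0950 (0.24 without G).

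Of the R3 MYB genes TRY was lower and CPC was not called under any of 10 alternatives. CPC was at 63.5, 30.3 and 30.4 FPKM, against 29.1, 28.8 and 40.5 normalized CPM per kb, a log2 difference of 0.34 ± 0.660. Library G alone lay above the epidermal range, and without it the difference was -0.01. TRY was at 0.515, 0.337 and 0.333 FPKM against 1.91, 2.77 and 3.06, a difference of -1.26 ± 0.274 (-1.33 without G). ETC1 was at 3.24, 0.408 and 2.02 FPKM against 5.27, 5.15 and 3.46, below the epidermal libraries, though only narrowly in G. Once centred, library G overlapped the lowest epidermal library. The mean difference was -0.996, just inside the 2-fold limit, and -1.35 without G. With differences relative to 4 reference genes in place of the median of all genes, CPC was at -0.32 and 8 members were lower, all but CPC and TTG1. That setting moved every gene down alike, with a shift of 0.58 in place of -0.09. The share of all genes lower under it is not given here. The reference genes themselves lay from -0.21 to 1.34 around the median of all genes.

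The outputs GL2 and TTG2 did not meet the rule over all 3 hair cell libraries. GL2 was at 24.7, 7.27 and 9.62 FPKM against 19.0, 19.6 and 30.1 per kb in epidermis, with library G inside the epidermal range. The centred log2 differences by library were 0.22 in G, -1.42 in H and -1.05 in I, with a mean of -0.75, or -1.24 without G. TTG2 was at 6.09, 2.91 and 3.78 FPKM against 8.30, 9.85 and 9.34, below the epidermis in every library, with a mean difference of -0.91 ± 0.451 (-1.15 without G). For comparison, RHD6 was at 125, 18.9 and 39.1 FPKM, a centred difference of -0.18, which was -0.90 without library G (1.26 in G, -1.40 in H and -0.39 in I). The 8 hair factors ran from -0.40 to 1.17, with a median of 0.35, or -0.07 without library G. LRL2 (1.17) was called higher and no other hair factor was called, against 5.29% of genes higher. Without library G LRL2 was at 0.98 and no hair factor was called.

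**Figure D2:**
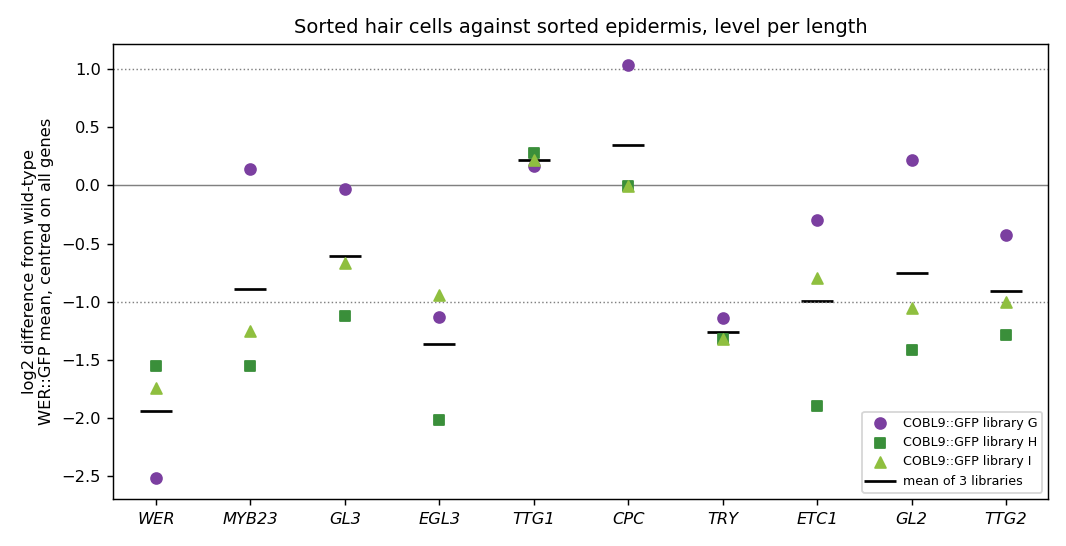
Centred log2 difference of each COBL9::GFP library (symbols) from the wild-type WER::GFP mean, per transcript length, with the mean of 3 libraries as a black bar and dotted lines at 2-fold. WER lies between -2.52 and -1.55 and TTG1 between 0.17 and 0.28, and library G is the highest for MYB23, GL3, CPC, TRY, ETC1, GL2 and TTG2.

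Ratios within a library put the non-hair and hair-promoting members side by side in each sort. Levels were taken per length with 1 added to each. The log2 ratio of GL2 to CPC was -0.59, -0.53 and -0.41 in wild-type epidermis and -1.33, -1.92 and -1.56 in COBL9::GFP cells. The ratio of WER to CPC was 1.18, 0.75 and 0.33 in epidermis and -2.80, -0.79 and -0.98 in hair cells. These ratios did not overlap, library G included, also with the shortest transcript lengths, but the levels of the tables rest on different length models and were not tested. The ratio of WER to CPC only describes the sorts, because the WER promoter chose the epidermal cells. GL3 exceeded EGL3 in hair cells, with log2 ratios of 0.87, 0.66 and 0.05, against -0.28, -0.20 and -0.21 in wild-type epidermis and -1.35, -1.09 and -1.13 in rhd6 epidermis. On this scale CPC exceeded TRY by 4.55 to 5.41 in hair cells and by 2.98 to 3.37 in wild-type epidermis. It exceeded ETC1 by 3.38 to 4.48 against 2.26 to 3.22. The added 1 understates these ratios where TRY or ETC1 was low. In hair cells TRY was at 0.333 to 0.515 FPKM and ETC1 at 0.408 to 3.24. The other pairs overlapped, WER to MYB23 at -1.61 to 1.05 in hair cells against 0.68 to 1.42 in epidermis, and GL2 to TTG2 at 1.08 to 1.86 against 0.92 to 1.59.

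**Figure D3:**
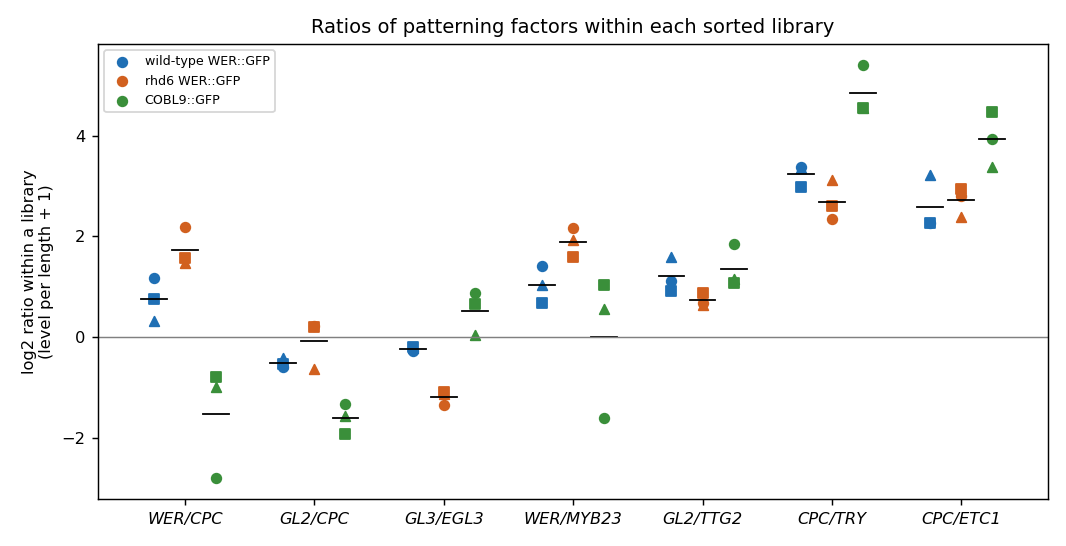
Log2 ratios of pairs of patterning factors within each library, from levels per transcript length with 1 added to each. Wild-type WER::GFP is blue, rhd6 WER::GFP orange and COBL9::GFP green, with bars at group means. WER/CPC means are 0.75, 1.74 and -1.53 and GL3/EGL3 means -0.23, -1.19 and 0.53 in these groups.

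Within the COBL9::GFP group the members split by library. In library G MYB23, GL2, CPC and ETC1 were at least 2-fold above the mean of the other libraries (log2 differences 1.54, 1.45, 1.04 and 1.04), as were 5.34% of genes. GL3, TTG2, EGL3 and TRY were above by 0.86, 0.71, 0.35 and 0.18, TTG1 was at -0.08 and WER at -0.87. The 8 hair factors were above the other libraries by 0.0062 (PLDZ1) to 2.53 (RSL2), with RHD6 at 2.15 and LRL2 at 0.54, and the 6 hair markers by 0.36 (RHS19) to 1.60 (EXPA7). Genes of inner tissues were also above, with the 3 cortex and endodermis genes SCR, CASP1 and MYB36 at 0.83, 1.31 and 0.64. Of the 5 stele genes, COBL4 was at 1.03, AHK4 at 0.84, CESA7 at 0.55, SHR at 0.08 and PHB at -0.42. Of the root cap genes SMB was at -3.13, BRN1 at -3.32 and BRN2 at -3.45, but FEZ at -0.21, near the median of all genes (-0.15). The 6 cell division genes were lower too, between -2.27 and -1.15. The cell division sum was 6.23 FPKM in library G and 35.1 and 27.0 in the others. The part of these other genes in the members' values was not tested.

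**Figure D4:**
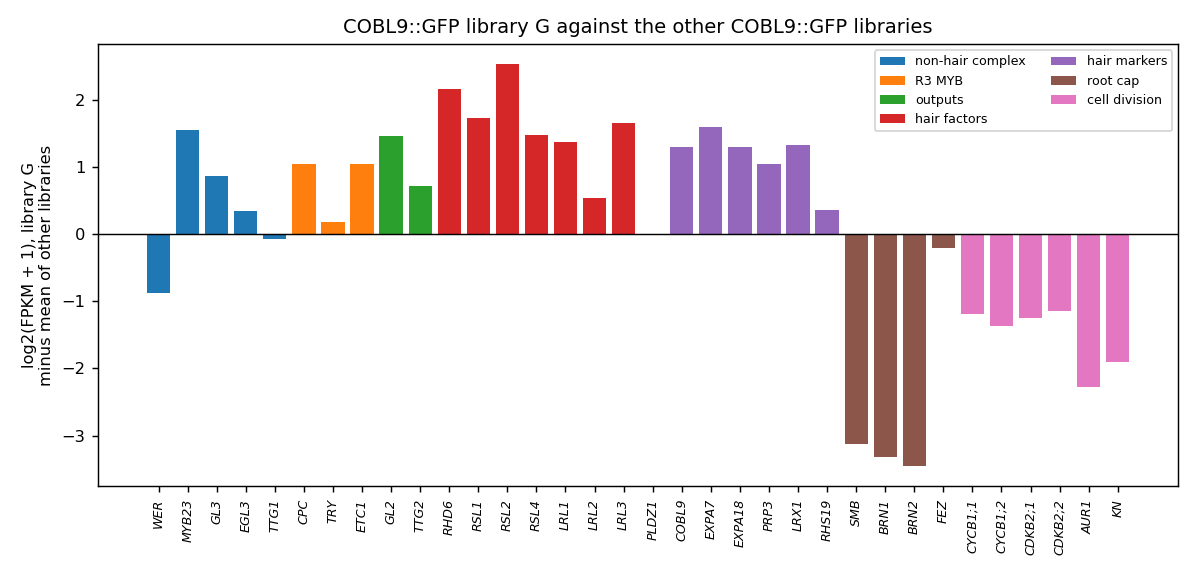
Difference in log2(FPKM + 1) between COBL9::GFP library G and the mean of the other COBL9::GFP libraries, 1 bar per gene, coloured by list. MYB23 (1.54) and GL2 (1.45) lie above 0 with the hair factors and hair markers, and WER (-0.87) below it with the root cap and cell division genes.

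Of the 12 other pathway genes in both tables, SCM, QKY and ANL2 were lower in COBL9::GFP cells and none was higher. By the same rule 14.8% of all genes were lower and 5.29% higher. SCM was at 0.103, 0.131 and 0.0695 FPKM in libraries G, H and I, a centred log2 difference of -1.94 ± 0.0504 from wild-type epidermis (-1.95 without library G), a size that the pseudocount of 1 understates at so low a level. QKY, a membrane protein that acts with SCM, was at 1.67, 0.727 and 1.23 FPKM (-1.32 ± 0.340, and -1.48 without library G). ANL2 was at 2.29, 23.7 and 15.5 FPKM, so that its difference of -1.87 rested in part on library G and was -1.01 without it. MYC1 was at 7.65, 3.54 and 10.98 FPKM (-0.57 ± 0.716, and -0.66 without library G), and GEM at 73.5, 43.0 and 47.2 (0.53 ± 0.441, and 0.29 without it), neither past the rule. The 6 hair markers had a median of 0.86, or 0.42 without library G, and none was called in either case. All 6 cell division genes were lower, and 5 of them without library G, when 13.2% of all genes were.

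Levels of the members in hair cells ran in another order than in epidermis. In COBL9::GFP cells CPC stood first at 41.4 ± 19.1 FPKM (SD, n = 3), above TTG1 at 19.5 ± 0.773 without overlap. MYB23 (14.96 ± 10.8), GL2 (13.9 ± 9.44) and WER (13.4 ± 4.59) followed and overlapped one another. A gap without overlap set these apart from TTG2 at 4.26 ± 1.64, GL3 at 4.14 ± 1.97, EGL3 at 2.56 ± 1.24, ETC1 at 1.89 ± 1.42 and TRY at 0.395 ± 0.104, whose neighbours overlapped. In rhd6 epidermis WER stood first at 79.5 ± 27.6 normalized CPM per kb, without overlap with CPC at 22.6 ± 5.49, and every other pair of neighbours overlapped.

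Sieved root hairs, which hold the broken-off outgrowths, were described by a shorter list whose lowest mean was 3.00 FPKM. TTG1 was at 46.6, 35.5 and 31.3 FPKM and CPC at 13.7, 5.28 and 7.33 in replicates 1 to 3. WER, MYB23, GL3, EGL3, TRY, ETC1, GL2 and TTG2 were not listed. Of the 7 members with a COBL9::GFP mean of 3 FPKM or more, 2 were listed, against 86.7% of the 12741 genes at that level. Of genes within 1.2-fold of WER, MYB23 or GL2 in COBL9::GFP cells, 89.1%, 89.6% and 89.2% were listed. For the lowly read TRY and ETC1 the same shares were 27.5% and 57.1%, so that their absence from the list says less. Against COBL9::GFP cells, and relative to the median of the listed genes, CPC was lower by the same 2-fold rule, at a log2 difference of -2.77 (-3.29 to -2.38 when any 1 library was left out), where 16.4% of listed genes were lower and 14.2% higher. TTG1 had 0.26, and -0.08 without sieved replicate 1. Library preparation differed between these groups, so preparation and material cannot be told apart.

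The likeness of other genes to GL2 and CPC was measured as the root mean square difference of log2 values, each gene centred on its own mean, over 9 sorted libraries and 13669 genes. Nearest to GL2 were PLP9 (0.173), RLP51 (0.183) and AT1G72840 (0.208), against a median of 0.764 over genes. Of the members, MYB23 ranked 21 (0.275), GL3 ranked 25 (0.281) and TTG2 ranked 152 (0.376) in likeness to GL2, whereas EGL3 ranked 7674 and WER 10687. Nearest to CPC were WIH3 (0.173), NAGS1 (0.173) and AT1G54820 (0.182), against a median of 0.690, and the member nearest to CPC was TTG1 at rank 2473. TRY and ETC1 had wild-type means below 5 normalized CPM and were not ranked. These libraries share their normalization within each table, and the measure is a description of 9 libraries only.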

How the data were processed

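RNA was sequenced from sorted protoplasts (TruSeq) and sieved hairs (SMART-Seq v4), per the labels' protocols. The submitters' processing notes name HTSeq 0.6.1, Cufflinks, edgeR, CASAVA 1.8.2 and TopHat2 in versions 2.0.3 and 2.0.9, and the labels name TAIR10. The strand setting of the counting is not given in the sources used. The authors deposited, per the file headers, a WER::GFP table of signal values per library that are normalized CPM, with their own log2 fold change, p-value and FDR, and tables of FPKM for COBL9::GFP cells and sieved hairs. A WER::GFP value is a whole number of reads times a factor for its library. Whole reads were recovered for 100.0% of values (within 0.01 read). The depth was 10562137 to 23110648 reads. Depth behind the FPKM tables is unknown.

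Here limma 3.58.1 (trend, R 4.3.3) was fitted to log2(value + 1) for the 17575 genes that reached a value of 1 in 3 or more of the 6 libraries, with Benjamini-Hochberg adjustment and a threshold of 0.05. As alternatives edgeR 4.0.16 (quasi-likelihood) and DESeq2 1.42.0 were run on the recovered reads and called 665 and 1352 genes. The limma step was tested on simulated data. Ratios were compared by exact two-sided permutation over libraries with scipy 1.17.1. P-values of the fits set each group difference against the spread between libraries. The permutation test set it against the same libraries relabelled. Fold changes on log2(value + 1) understate changes of low genes. COBL9::GFP values were set beside WER::GFP values per kilobase of the longest RefSeq transcript (TAIR10.1), which matched 17608 of 17628 genes. Because TAIR10.1 is not the build named in the labels, it served for names, lengths, overlaps and coding sequences only, and no coordinates are given. One overlap of a member with another gene is not reported here. Proteins were translated from its coding sequences and aligned with Biopython 1.88. Tables of other species were not used here.

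All 10 members are described. For GL2 and CPC the 3 genes of most similar profile are named, among genes with a wild-type mean of 5 or more. Other named genes belong to lists of R3 MYB genes, complex relatives, position and upstream genes, HD-ZIP IV relatives, downstream hair factors, and markers of hair cells, root cap, cortex and endodermis, stele and cell division, with reference genes. In limma 0 of 4 root cap, 0 of 3 cortex and endodermis, 0 of 4 stele, 0 of 6 cell division and 0 of 4 reference genes passed, with 1, 0, 1, 3 and 0 at an unadjusted p below 0.05. Of all tested genes 4.12% passed in limma and 17.1% had an unadjusted p below 0.05. The members and lists were chosen with earlier results of these data known.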

Additional observations from a re-analysis of the deposited data

How the results depend on the processing

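Of the members only EGL3 passed in the rhd6 comparison under any alternative run, in DESeq2 and in limma without rhd6 library E. The count of all genes passing was 1352 in DESeq2 and 431 with a mean of 5 or more, and 222 to 784 when 1 library was left out, against 724. Leaving out 1 library gave 0 to 1 members and 2 to 4 downstream hair factors, from a list that includes RHD6 itself. DESeq2 called 1 member and 1 other pathway gene, against 7.67% of genes. The log2 difference of GL3 turned to 0.0328 in DESeq2, 0.0504 in edgeR and 0.0161 without the authors' scaling factors, and ran from -0.34 to 0.25 when 1 library was left out. The same range was -0.18 to 0.15 for TRY, -0.26 to 0.12 for GL2 and -0.0508 to 0.418 for the ratio of CPC to ETC1. Members lower in COBL9::GFP cells numbered 8 relative to the reference genes, whose shift was 0.58, 6 with the shortest transcript, and 3 to 7 when 1 library was left out. The share of all genes lower was 14.8% in the main setting and 13.2% without library G, and is not given for the others. WER, EGL3 and TRY were lower under all 10 alternatives. The causes were not tested. No paired analysis was possible because the columns carry library numbers that the labels do not tie to replicates. TRY and ETC1 had the lowest depth, 18 to 102 reads a library. Their SEs in the rhd6 comparison were 0.25 and 0.32, where the 10 members ran from 0.17 to 0.33. These SEs are on log2(value + 1), which narrows the spread of low genes, and the part of depth was not tested.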
